A study of Mus musculus with 18 samples.

Results

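The mouse distal colon was compared between arrays of tissue taken at the 8-o'clock times and arrays of tissue taken at the 12-o'clock times of the same day. The 12 arrays were chosen by the collection time in their titles, out of 18 in the series. The 8-o'clock set holds 3 arrays of 8am (1 h after lights on) and 3 of 8pm (13 h after lights on), and the 12-o'clock set holds 3 arrays of 12pm (5 h after lights on) and 3 of 12am (17 h after lights on). Each set therefore joins a time in the light with the time 12 h later in the dark. The mice ate freely under 12 h of light (starting at clock hour 7) and 12 h of dark for 2 weeks, and the segment lay about 0.5 cm above the anus. No genotype, strain, sex or age is given in the labels. Nor do they say whether the arrays of a time are separate mice or pools, so a p-value here reflects only how these samples vary, which may be technical. The question is which genes, and which parts of the tissue, make times 12 h apart look alike. A rhythm with a period of 12 h and the handling of the samples in sets cannot be told apart in this design.

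The colon wall is built from an inner epithelium, whose crypt base cells divide and supply absorptive colonocytes, mucus-making goblet cells and hormone-releasing enteroendocrine cells, a connective tissue layer with blood vessels and immune cells, and smooth muscle with its own nerves and glia. Most daily rhythms in gene activity are driven by the circadian clock, in which the proteins of Clock and Arntl switch on Per and Cry genes whose products then switch them off. Transcripts that rise and fall with a period of 12 h are also known, chiefly from mouse liver, where many belong to protein folding and quality control. In bulk tissue, fewer cells of a type and less RNA per cell cannot be told apart.

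Levels are log2 values of the quantile-normalized array signal plus a constant of 16, so that a signal of 0 would read 4, and each gene is represented by the probe set with the highest mean. Differences are the mean of 8am and 8pm minus the mean of 12pm and 12am, from limma across all genes. Of 12799 genes tested, 3567 (27.9%) passed an adjusted p of 0.05, 1833 (14.3%) higher and 1734 (13.5%) lower in 8-o'clock arrays, and 5197 (40.6%) had an unadjusted p under 0.05. Most differences were small. The median absolute log2 difference was 0.58 among the genes that passed, and 391 of them (233 higher, 158 lower) differed by at least 1. In 1392 genes (10.9%) the 6 arrays of one set did not overlap the 6 of the other, 717 (5.6%) being higher and 675 (5.27%) lower in 8-o'clock arrays. Each probe set on its own passed in 7216 of 27022 cases (26.7%). The count of genes fell to 2756 without 8pm a and reached 3947 without 12am a, and it was 1398 when all 18 arrays shared 1 estimate of spread.

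The light times (8am minus 12pm) and the dark times (8pm minus 12am) were also compared separately, and these comparisons share no array. Across genes, which are not independent replicates, these differences correlated with r = 0.63, and 70.8% of all genes had the same sign in both. All values come from 1 normalization over the 12 arrays. Within the light 981 genes passed, and within the dark 2291. No gene passed the test of the difference between light and dark in limma, where 1280 genes (10%) had an unadjusted p under 0.05, and single genes passed when certain arrays were left out, up to 7 without 12am b. At the level of whole arrays, 8am arrays resembled 8pm arrays (mean r = 0.965 over 9 array pairs) about as closely as each other (0.968). They correlated less with 12pm arrays, which were only 4 h away (0.935). The 12-o'clock times were less alike. The 12pm arrays correlated with each other at 0.961, with 8am at 0.935, with 8pm at 0.936 and with 12am at 0.930, and the 12am arrays correlated among themselves at only 0.928.

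**Figure D1:**
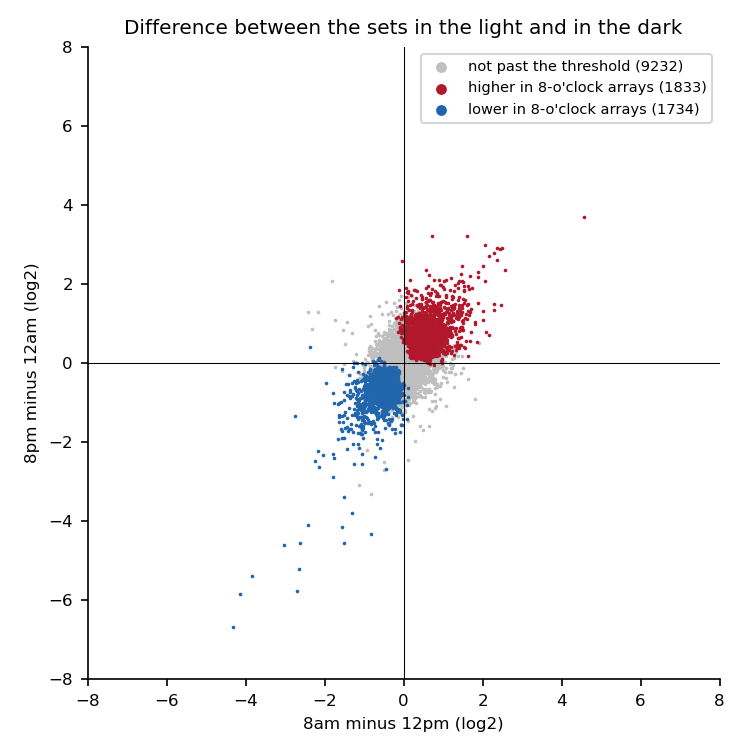
Each point is 1 of 12799 genes, placed by its log2 difference 8am minus 12pm (x axis) and 8pm minus 12am (y axis), with genes that passed for the mean of these coloured red (1833 higher) or blue (1734 lower). The points run along the rising diagonal, with r = 0.63, and the pancreatic enzyme genes form the tail at the lower left.

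Several technical readings of the arrays moved with the sets. The median deposited signal was 160 to 184 in 8-o'clock arrays and 187 to 251 in 12-o'clock arrays, although the trimmed mean was 500.0 in all 12. Bacterial hybridization controls, which are added in fixed amounts just before hybridization, averaged 2780 ± 220 in 8-o'clock and 2020 ± 310 in 12-o'clock arrays (SD, n = 6 each). Neither measure overlapped between the sets (exact two-sided permutation test, p = 0.00216 for each, the smallest that 6 against 6 arrays allow, and 0.00433 adjusted over 8 measures). The lys, phe and thr controls averaged 2470 ± 857 in 8-o'clock and 5060 ± 1850 in 12-o'clock arrays (adjusted exact p = 0.0115). Their ratio of 3′ to 5′ signal averaged 1.65 ± 0.0866 in 8-o'clock and 1.32 ± 0.127 in 12-o'clock arrays (adjusted exact p = 0.00693). The 3′ to 5′ ratio of Gapdh in the tissue RNA averaged 0.826 ± 0.0316 in 8-o'clock and 0.854 ± 0.14 in 12-o'clock arrays (adjusted exact p = 0.831). That of Actb averaged 1.16 ± 0.018 and 1.2 ± 0.0536 (adjusted exact p = 0.101). The deposited 5′ signals of these controls did differ (adjusted exact p = 0.00433 for each). Gapdh averaged 21100 ± 2100 in 8-o'clock and 13600 ± 1160 in 12-o'clock arrays, and Actb 23300 ± 2500 and 16800 ± 1990. The part of these readings in the gene differences was not tested. When the deposited values were centred on the array medians, the median difference of all genes moved to 0.252, and 83.8% of 5650 genes that passed were higher in 8-o'clock arrays, against 51.4% after quantile normalization. Directions below are therefore relative to the bulk of genes.

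The largest measured rise was in Pdia4 (chr6:47796141-47813512, build GRCm38.p6), which encodes a disulfide isomerase of the endoplasmic reticulum. Its lowest, median and highest levels were 10.18, 10.40 and 10.85 in 8-o'clock arrays, against 5.22, 6.65 and 7.13 in 12-o'clock arrays. The sets stood far apart, with no array between them. The difference was 4.14 ± 0.26 (SE), a 17.6-fold change (limma adjusted p = 6.52e-07), with 4.57 in the light and 3.70 in the dark. The 12-o'clock mean of 6.30 lay under the filter level of 7.15, where a signal is not shown to be above background, and against that level itself the 8-o'clock mean was 9.78-fold higher. A second probe set of Pdia4, below the filter on low levels, averaged 6.23 in 8-o'clock and 5.82 in 12-o'clock arrays, so the rise rests on 1 probe set.

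The next largest rises were in genes of unlike function. In 8 of the 12 largest rises (Pdia4, Upb1, Ddx49, Cyp2d26, Mllt1, Haus1, Sp4 and Slc18a2) the 12-o'clock mean was under the filter level, so that these genes were tested only because of their 8-o'clock level. Their differences are as fitted, and against the filter level the 8-o'clock means of the last 7 were 2.43-fold to 3.81-fold higher. Upb1, an enzyme of pyrimidine breakdown, had 8.68, 8.84 and 9.22 (lowest, median, highest) in 8-o'clock arrays against 5.37, 6.21 and 7.08 in 12-o'clock arrays, a difference of 2.70 ± 0.25 (adjusted p = 1.83e-05). Rnasek, a ribonuclease gene, had 10.66, 11.03 and 11.14 in 8-o'clock arrays against 7.37, 8.21 and 9.34 in 12-o'clock arrays, a difference of 2.65 ± 0.28. Ddx49, a helicase of the DEAD-box family, had 8.27, 9.02 and 9.28 in 8-o'clock arrays against 5.71, 6.34 and 6.68 in 12-o'clock arrays, a difference of 2.64 ± 0.22. In none of these did the sets overlap. Tm7sf2, a sterol reductase of cholesterol synthesis, rose by 2.48 ± 0.26, and Cyp2d26, a cytochrome P450, by 2.54 ± 0.22. Mllt1, a component of transcription elongation complexes, rose by 2.53 ± 0.32, Haus1, a subunit of the augmin complex of the spindle, by 2.46 ± 0.21, and Sp4, a transcription factor of the Sp family, by 2.43 ± 0.23. Gsdme, a pore-forming gasdermin, rose by 2.24 ± 0.23, and Slc18a2, which loads monoamines into vesicles, by 2.09 ± 0.30. Prune2 rose by 2.40 ± 0.46 and varied most in the 12-o'clock set, from 5.10 in 12am a to 8.93 in 12am c. Of these 12 genes, 10 had 1 probe set above the filter, and no further probe set of Prune2 or Gsdme passed.

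**Figure D2:**
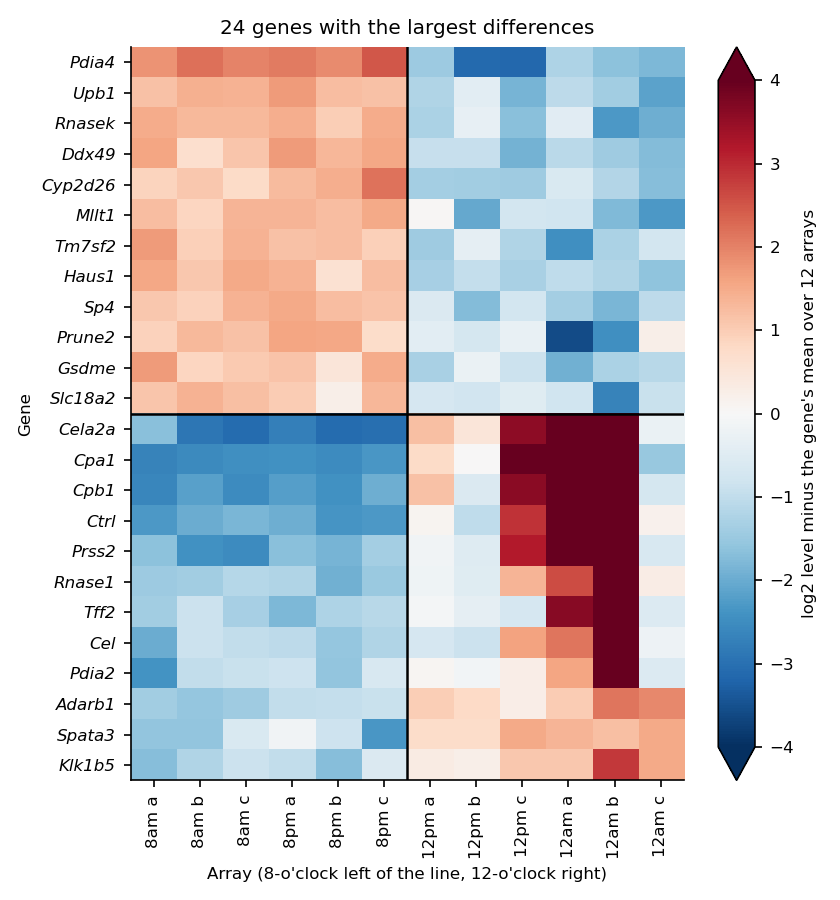
Rows are the 12 genes with the largest rise and the 12 with the largest fall among genes whose sets do not overlap, columns are arrays with the 8-o'clock set left of the line, and colour is the log2 level minus the gene's mean (capped at 4 in either direction). The rising genes, Prune2 apart, vary less within a set than between sets, while the pancreatic enzymes among the falling genes reach from 5.98 to 14.51 in 12-o'clock arrays.

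The largest measured falls were in digestive enzymes of the exocrine pancreas, which lies outside the colon. All 10 tested members of the pancreatic enzyme list, of 13 listed, were lower in 8-o'clock arrays, 8 of them past the threshold (background 13.5% lower), with a median difference of -3.19 against 0.003 over all genes. For members tested only because of their 12-o'clock level, Cela2a, Cpa1 and Cpb1 among them, a lower 8-o'clock mean was fixed by the filter. The count and median of the list are therefore partly set in advance. Cela2a, a pancreatic elastase (chr4:141814954-141826005), had levels of 4.87, 5.0 and 6.26 (lowest, median, highest) in 8-o'clock arrays and 7.67, 10.35 and 14.39 in 12-o'clock arrays. Its deposited signal was 7.81 to 48.3 in 8-o'clock arrays, against 568, 327 and 2740 in 12pm a to c and 8220, 23500 and 243 in 12am a to c. All 12-o'clock arrays lay above every 8-o'clock array but were very unequal among themselves (difference -5.49 ± 0.88, adjusted p = 0.000714). In 6 of the 12 largest falls (Cela2a, Cpa1, Cpb1, Ctrl, Tff2 and Pdia2), and in Reg1, the 8-o'clock mean was under the filter level and the gene was tested only because of its 12-o'clock level. Their fitted differences are therefore given without an order. Against the filter level the 12-o'clock mean was 11.6-fold higher for Cela2a, 7.26-fold for Cpa1, 7.57-fold for Cpb1 and 7.94-fold for Ctrl.

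Other acinar genes, of which Ctrl, Rnase1, Pdia2 and Reg1 are not on that list, were likewise highest in 12am b. Cpa1, a carboxypeptidase (chr6:30639218-30645361), had 4.83, 5.02 and 5.17 in 8-o'clock arrays, close to the floor of 4 that the constant sets, and 5.98, 9.87 and 14.19 in 12-o'clock arrays, a difference of -5.0 ± 1.07 (adjusted p = 0.00423). Cpb1, a second carboxypeptidase, differed by -4.62 ± 0.92, and Ctrl, a chymotrypsin-like protease, by -4.23 ± 0.81. Prss2, a trypsinogen, differed by -3.82 ± 0.84, and its 4 probe sets all passed, although trypsinogen genes are near-identical copies whose signals cannot be separated. Rnase1, the pancreatic ribonuclease, differed by -2.86 ± 0.57. Cel, a bile-salt-stimulated lipase, differed by -2.55 ± 0.73 (adjusted p = 0.0193) and no longer passed without 12pm c (adjusted p = 0.0507). Pdia2, a disulfide isomerase of the pancreas, differed by -2.46 ± 0.79, with 12am b at 13.27 and the next array at 8.73, and no longer passed without any one of 8am a, 8pm a, 8pm b, 12pm a or 12pm b (adjusted p between 0.0504 and 0.0751). Tff2, a trefoil peptide of mucus, differed by -2.58 ± 0.73, with levels of 10.87 in 12am a and 12.95 in 12am b and 6.54 to 7.14 in the other 12-o'clock arrays. Without 12am a, and likewise without 12am b, Pdia2, Tff2 and Cpa1 fell below the filter and were not tested. Reg1, a secreted lectin-like protein of acinar cells, fell by 3.59 ± 1.01. The median of the list was -1.79 without 12am b, where Cpa1 was not among the tested members.

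Some members were well expressed in both sets. Clps, the cofactor of pancreatic lipase, had 8.93 to 10.39 in 8-o'clock arrays and 9.70 to 14.49 in 12-o'clock arrays, which overlap (difference -1.67 ± 0.54, adjusted p = 0.0337). Clps no longer passed without 8am a, any 8pm array, 12pm a or 12pm c (adjusted p between 0.0509 and 0.0795). Cela1 was high in every array, at 12.44 to 13.32 in 8-o'clock and 13.52 to 14.32 in 12-o'clock arrays, and differed by -0.77 ± 0.14 with no overlap. Sycn, a protein of zymogen granules, averaged 13.89 ± 0.28 in 8-o'clock and 14.18 ± 0.13 in 12-o'clock arrays (SD, n = 6 each) and did not pass (adjusted p = 0.0654). The summed deposited signal of the 10 members was 18900 to 33500 in 8-o'clock arrays and 27400 to 229000 in 12-o'clock arrays. How pancreatic transcripts came to be in these samples was not tested.

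**Figure D3:**
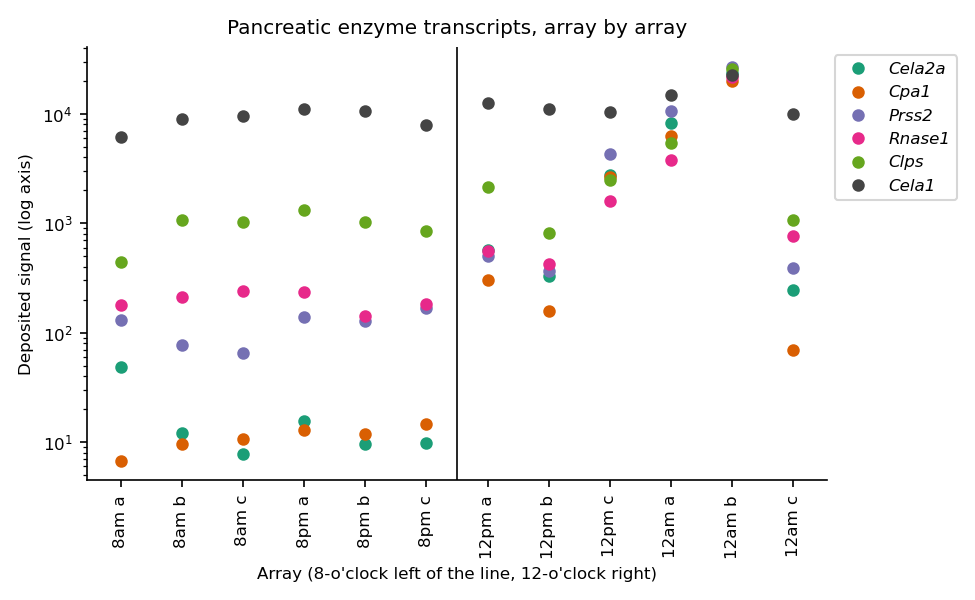
Deposited signal (log axis) of 6 pancreatic enzyme transcripts in each array, with the 8-o'clock set left of the line. Cela2a and Cpa1 stay below 50 in all 8-o'clock arrays and range from 69.7 to 23500 in the 12-o'clock set, while Cela1 is at least 6120 throughout.

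Cela2a, Cpa1, Cpb1 and Ctrl are among the genes with large fitted falls, which carry no order. Why their levels varied together between arrays was not tested. The promoters of these 4 genes are shown as a description only. They are the 250 bases before each gene's start from RefSeq (build GRCm38.p6), at chr4:141826006-141826255 (minus strand) for Cela2a, chr6:30638968-30639217 (plus strand) for Cpa1, chr3:20275734-20275983 (minus strand) for Cpb1 and chr8:105933863-105934112 (minus strand) for Ctrl, written 5′ to 3′ along the gene's strand. Capitals mark CACCTG and TTTCCC on either strand (CAGGTG and GGGAAA on the other), the sequence parts that the acinar transcription factor complex PTF1 is known to bind.
Cela2a: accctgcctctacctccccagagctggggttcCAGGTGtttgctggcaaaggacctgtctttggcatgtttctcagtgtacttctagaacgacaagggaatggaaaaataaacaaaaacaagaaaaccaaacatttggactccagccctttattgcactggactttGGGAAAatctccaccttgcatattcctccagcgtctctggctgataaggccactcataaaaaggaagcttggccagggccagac
Cpa1: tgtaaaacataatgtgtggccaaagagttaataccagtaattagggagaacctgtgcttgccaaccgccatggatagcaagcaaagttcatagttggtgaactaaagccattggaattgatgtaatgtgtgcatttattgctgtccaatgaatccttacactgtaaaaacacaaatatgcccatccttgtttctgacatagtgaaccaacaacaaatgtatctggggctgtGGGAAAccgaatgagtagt
Cpb1: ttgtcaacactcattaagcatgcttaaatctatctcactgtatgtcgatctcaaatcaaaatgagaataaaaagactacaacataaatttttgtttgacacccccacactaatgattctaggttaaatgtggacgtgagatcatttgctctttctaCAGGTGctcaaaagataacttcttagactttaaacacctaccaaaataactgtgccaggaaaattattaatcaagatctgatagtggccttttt
Ctrl: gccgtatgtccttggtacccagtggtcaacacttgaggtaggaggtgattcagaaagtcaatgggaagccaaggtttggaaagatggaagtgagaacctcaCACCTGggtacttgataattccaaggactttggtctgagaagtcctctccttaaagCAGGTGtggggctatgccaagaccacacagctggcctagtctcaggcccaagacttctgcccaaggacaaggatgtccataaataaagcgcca
Among 11 acinar genes with a promoter in the table, 7 held CACCTG, 6 held TTTCCC and 4 held both. Of all 32851 promoters cut to the same length, 17.2% held CACCTG, 21.9% TTTCCC and 3.61% both. Cpa1 held no CACCTG and Cpb1 and Ctrl no TTTCCC in this window. A match is a description of these letters and not a binding site. Clps was not matched.

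A few strong falls were unlike the pancreatic ones. Adarb1, an enzyme that edits adenosine in RNA, had 6.96, 7.34 and 7.61 in 8-o'clock arrays and 8.78, 9.52 and 10.66 in 12-o'clock arrays, a difference of -2.39 ± 0.19 (adjusted p = 4.06e-06), while its further probe set differed by -0.43 and did not pass. Spata3, a gene named for its expression in testis, had 6.71, 7.86 and 8.90 in 8-o'clock arrays against 9.78, 10.34 and 10.58 in 12-o'clock arrays, a difference of -2.36 ± 0.31. Klk1b5 (-2.35 ± 0.29) belongs to the kallikrein family, whose members resemble each other closely enough for probes to cross-hybridize. In these 3 genes the sets did not overlap.

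The gene lists were then read by the layer of tissue they mark. Connective tissue genes fell more often than they rose. Of 20 fibroblast and collagen genes, 8 fell and 1 rose (background 13.5% lower, 14.3% higher), with a median of -0.40, which was -0.24 without 8pm c and turned to 0.02 when centred on array medians (all genes 0.252). Sparc, a matrix glycoprotein, had 10.65, 11.13 and 12.23 in 8-o'clock arrays and 12.17, 12.62 and 12.70 in 12-o'clock arrays, so only the highest 8-o'clock array reached the other set (difference -1.25 ± 0.21, adjusted p = 0.000981). Fbln1, which binds matrix and basement membrane proteins, differed by -0.98 ± 0.12 with no overlap, although its 2 further probe sets did not pass. Col6a3 and Col6a2, chains of collagen VI, differed by -0.76 ± 0.13 and -0.45 ± 0.10, whereas Col4a1, a basement membrane chain, rose by 0.44 ± 0.12. Endothelial genes fell in 2 of 13 cases, close to the 13.5% of all genes (median -0.25, and -0.15 without 12am c), among them the receptor Tie1 (-0.98 ± 0.17, no overlap).

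Nerve and muscle lists had few members past the threshold. Of 18 enteric neuron genes 2 fell and 1 rose, a smaller share than the 27.9% of all genes (median -0.12, which was -0.04 without 8am a, -0.19 without 8am b or 12am b, -0.06 without 12am c, -0.07 without 8pm c or 12pm c, and turned to 0.06 when centred on array medians). Vip, the inhibitory neuropeptide of enteric neurons, had 9.82, 10.17 and 10.55 in 8-o'clock arrays and 10.76, 10.97 and 11.24 in 12-o'clock arrays, which do not overlap (difference -0.76 ± 0.12, adjusted p = 0.000779). Npy, a second neuropeptide, differed by -1.46 ± 0.39, and Ncam1, a cell adhesion molecule, rose by 0.40 ± 0.13. All 6 enteric glia genes had negative differences (median -0.32, and -0.17 when centred on array medians). Of these 2 passed (background 13.5% lower), Cryab (-0.64 ± 0.11) and Gfap (-0.50 ± 0.16). The further probe sets of Cryab (-0.25) and Gfap (-0.75) did not pass. In smooth muscle 2 of 19 rose and 2 fell, while 17 had negative differences. The median of -0.18 was -0.01 without 8am a, -0.11 without 12pm a, -0.28 without 8am c or 12pm c and -0.31 without 8pm b, and turned to 0.26 when centred on array medians. Myl9 (-0.61 ± 0.16) and Cnn1 (-0.49 ± 0.15), parts of the contractile apparatus, fell, while Myocd, the transcription coactivator of muscle genes, rose by 0.99 ± 0.21 and Ckb, a creatine kinase, by 0.71 ± 0.17.

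Among immune lists, all 9 tested MHC class II genes had negative differences, and 2 of them passed (background 13.5% lower). These were H2-Eb1 (-0.74 ± 0.17) and H2-DMa (-0.60 ± 0.17). The MHC class II median was -0.32, and between -0.45 and -0.22 with 1 array left out. Centred on array medians it was -0.06 (all genes 0.252). Of 19 macrophage genes, 4 fell and 2 rose, against 13.5% and 14.3% of all genes (median -0.15, which was -0.08 without 12am b and turned to 0.08 when centred on array medians). Lyz2 (-0.81 ± 0.19) and the complement genes C1qa (-0.60 ± 0.15) and C1qc (-0.43 ± 0.11) fell, while Cx3cr1, a chemokine receptor, rose by 0.37 ± 0.12 without overlap. Of 14 B and plasma cell genes 0 passed in limma, and 0 had an unadjusted p under 0.05. Their median was -0.12 (0.01 when centred on array medians), and Jchain, which joins antibody chains, differed by -0.49 ± 0.41. In the antimicrobial list 5 of 10 fell (background 13.5% lower), Reg1, Sprr1a, Reg3b, Lyz1 and Pla2g2a (median -0.54, and -0.27 without 12am b). Reg1, counted here, is also one of the acinar genes above that were highest in 12am b.

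The epithelium showed no common direction. Of 28 colonocyte genes, 2 rose and 3 fell, against 14.3% and 13.5% of all genes (median 0.05). Cdhr5, a cadherin of the brush border, had 13.20, 13.40 and 13.60 in 8-o'clock arrays and 13.61, 13.76 and 13.93 in 12-o'clock arrays, a small gap without overlap (-0.38 ± 0.07, adjusted p = 0.00246). Aqp8, a water channel, differed by -0.41 ± 0.09, and Muc13, a membrane mucin, by 0.24 ± 0.07 with both probe sets past the threshold. In goblet cells Capn9, a calpain, fell by 0.68 ± 0.12 and Gcnt3, a mucin glycosyltransferase, rose by 0.46 ± 0.11, both without overlap. Of the further probe sets of Gcnt3, that at -0.54 passed in the other direction and that at 0.17 did not pass. Of 17 tight junction genes, 6 fell and none rose (background 13.5% lower), though the median was only -0.03. Cgn (-0.74 ± 0.14), Cldn15 (-0.70 ± 0.16) and Cldn23 (-0.75 ± 0.13) fell most. The further probe set of Cgn differed by 0.29 and did not pass.

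Enteroendocrine genes held clear single changes. Tph1, which makes serotonin in enterochromaffin cells, had 7.80, 8.16 and 8.27 in 8-o'clock arrays and 8.84, 8.97 and 9.24 in 12-o'clock arrays (difference -0.88 ± 0.12, adjusted p = 0.000281). Pcsk1, a prohormone convertase, differed by -0.66 ± 0.14, and Cpe, a carboxypeptidase that trims prohormones, by -0.89 ± 0.11, though its further probe set did not pass. None of these overlapped between the sets. Nkx2-2, a transcription factor of endocrine cells, rose by 0.82 ± 0.19, also without overlap. With 3 of 13 lower and 1 higher (background 13.5% lower, 14.3% higher) the list as a whole had a median of 0.02.

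Crypt base genes rose more often than they fell. Of 14 crypt base and Wnt target genes 5 rose and 1 fell (background 14.3% higher, 13.5% lower), and 8 had positive and 6 negative differences. Their median was 0.19, which was 0.12 without 12pm c, 0.05 with the deposited scaling and 0.35 when centred on array medians. Myc (0.76 ± 0.14), Znrf3 (0.60 ± 0.13), Lrig1 (0.55 ± 0.16), Ascl2 (1.08 ± 0.32) and Sox9 (0.50 ± 0.17) rose. Smoc2, a matrix protein of crypt base cells, fell by 0.71 ± 0.10. The further probe sets of Lrig1 (0.16 and 0.4) and Smoc2 (-0.22) did not pass. Mitosis genes rose in 5 and fell in 0 of 23 cases (background 14.3% higher, 13.5% lower). The rises were led by Mki67 (0.87 ± 0.18), a marker of dividing cells. The median of the mitosis genes was 0.20, and 0.12 without 12pm c. Their median was 0.61 between the light times and -0.05 between the dark times, while Mki67 differed by 1.3 and 0.44. The test of that difference between light and dark passed for no gene. The DNA replication list had no common direction, with 3 of 24 higher (background 14.3%), 12 positive and 12 negative differences and a median of -0.02. Its largest rise was in Gins2, whose 12-o'clock mean was under the filter level. Gins2, a subunit of the replicative helicase, had 7.51, 8.16 and 8.59 in 8-o'clock arrays and 6.29, 6.52 and 7.36 in 12-o'clock arrays, with both probe sets past the threshold (1.38 ± 0.21, adjusted p = 0.000519).

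**Figure D4:**
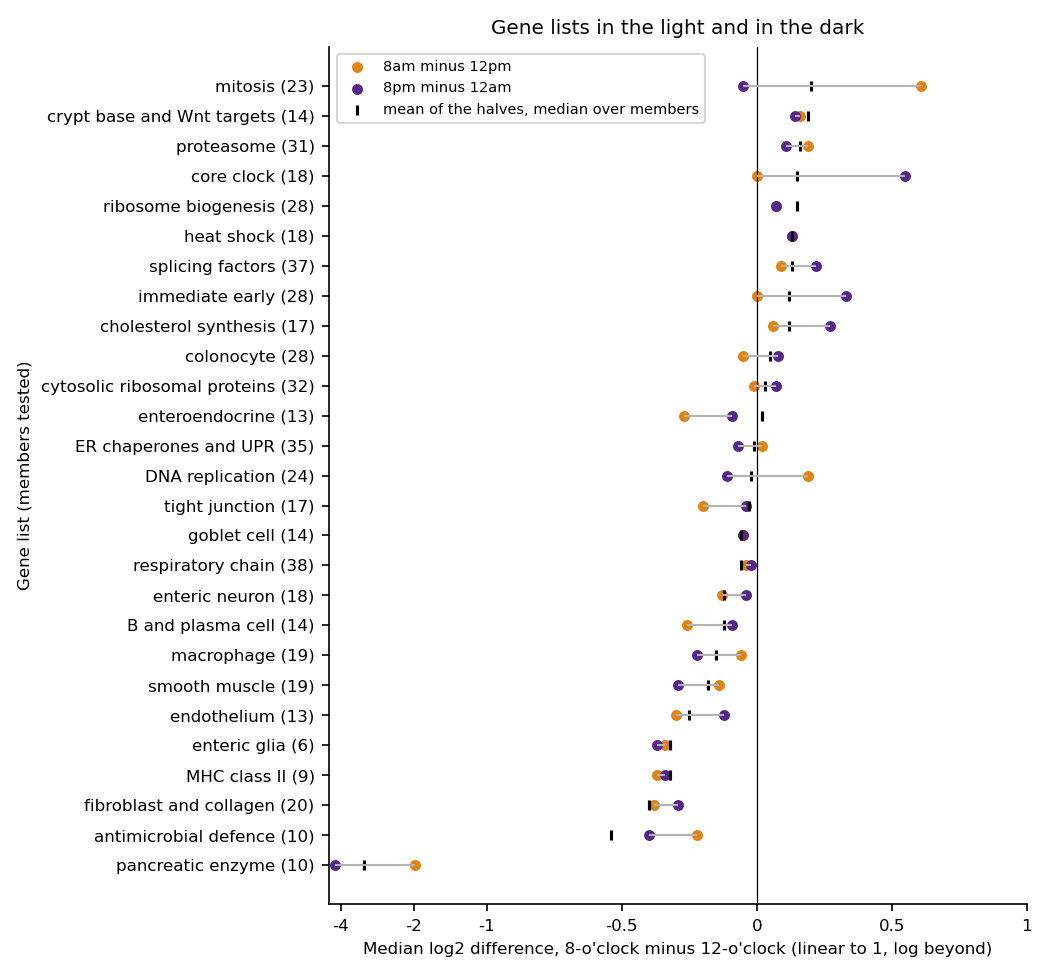
Median log2 difference of each gene list in the light (orange, 8am minus 12pm), in the dark (purple, 8pm minus 12am) and for their mean (black bar), with the members tested in brackets. For the mean, pancreatic enzymes stand at -3.19, antimicrobial defence at -0.54 and the other lists lie within 0.4 of 0 (the axis is logarithmic beyond 1). Single times reach further, as mitosis in the light (0.61) and core clock in the dark (0.55). Centring on array medians moves the median of all genes to 0.252. It turns the fibroblast and collagen, smooth muscle, enteric neuron, macrophage, and B and plasma cell lists positive. Lists with a negative median nearer 0 turn positive too (goblet cell, respiratory chain, tight junction, DNA replication, endoplasmic reticulum chaperones).

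Proteasome genes were higher in 8-o'clock arrays more often than lower. Of 31 proteasome subunits 9 rose and none fell (background 14.3% higher; median 0.16). Psma4, a subunit of the core particle, had 13.08, 13.22 and 13.37 in 8-o'clock arrays and 11.84, 12.25 and 12.47 in 12-o'clock arrays, a difference of 1.02 ± 0.10 (adjusted p = 3.46e-05). Psmb7 rose by 0.63 ± 0.10, and Psma5 by 0.40 ± 0.07 with both probe sets past the threshold. Of 37 splicing factors 8 rose and 2 fell, against 14.3% and 13.5% of all genes (median 0.13, and 0.25 without 12pm c), with Hnrnpa2b1 (0.75 ± 0.13), Srsf10 (0.75 ± 0.14) and Srsf1 (0.50 ± 0.07) higher. Son fell by 0.80 ± 0.12 on its first probe set, but of its 6 further sets 3 passed in the other direction and 1 in the same. Of 28 ribosome biogenesis genes 7 rose and 2 fell, against the same background (median 0.15, which was 0.05 without 12pm a and 0.09 without 8am a), with Dkc1, the pseudouridine synthase, at 0.94 ± 0.15 and Ddx21 at 0.66 ± 0.13. Of 32 cytosolic ribosomal protein genes 4 rose and 1 fell, less than the background in both directions (median 0.03), the rises being at most 0.34, as in Rpl19.

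Protein folding genes, the group best known for 12 h rhythms in liver, did not move as one here. Of 35 endoplasmic reticulum chaperone and unfolded protein response genes 5 rose and 3 fell, against 14.3% and 13.5% of all genes (median -0.01). Beside Pdia4, Pdia3, a second disulfide isomerase, had 13.36, 13.53 and 13.64 in 8-o'clock arrays and 12.08, 12.41 and 12.73 in 12-o'clock arrays (1.09 ± 0.08, adjusted p = 2.79e-06), while its weak further set did not pass. Canx, a lectin chaperone, rose on all 3 probe sets (first set 0.64 ± 0.10), and Sdf2l1 rose by 1.16 ± 0.22. The stress transcription factors Atf4 (-0.72 ± 0.14) and Ddit3 (-0.82 ± 0.23) and the stress sensor Ern1 (-0.38 ± 0.11) fell. The further probe set of Atf4 differed by 0.33 and did not pass. Of 18 heat shock genes 5 rose and 2 fell, against the same background. Their median was 0.13, which was 0.04 without 8pm c and 0.07 without 8am a or 12pm c. The co-chaperones Dnajb4 (1.12 ± 0.14) and Dnaja1 (0.57 ± 0.12) rose without overlap. The small heat shock proteins Hspb1 (-0.68 ± 0.10) and Cryab fell. The further probe sets of Dnajb4 (0.12), Hspb1 (-0.28) and Cryab (-0.25) did not pass. Of the further sets of Dnaja1, that at 1.2 passed, and that at 0.28 did not.

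Metabolic lists were mixed, read against a background of 14.3% higher and 13.5% lower. Of 17 cholesterol synthesis genes 5 rose and 1 fell (median 0.12, which was 0.03 without 12pm c, 0.07 without 8am a, 0.20 without 8am b and 0.22 without 12pm b). Insig1, which restrains sterol synthesis, rose by 0.71 ± 0.13, Fdps by 0.88 ± 0.21 and Mvk, the mevalonate kinase, by 1.18 ± 0.29. Fdft1, the squalene synthase, fell by 0.39 ± 0.10. The further probe sets of Mvk (0.52) and Fdft1 (-0.03) did not pass. Of 38 respiratory chain genes 4 rose and 3 fell (median -0.06), with Ndufv2 of complex I at 0.52 ± 0.06 and Cox4i1 of complex IV at -0.25 ± 0.06, both without overlap. Of the further probe sets of Ndufv2, that at 0.81 passed, and that at -0.3 passed in the other direction. Among 28 immediate early genes 3 rose and 2 fell, against the same background (median 0.12). Egr3, a transcription factor induced by stimulation, had 7.51, 7.65 and 8.46 in 8-o'clock arrays and 8.89, 9.34 and 10.65 in 12-o'clock arrays (-1.80 ± 0.21, adjusted p = 0.000102).

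Core clock genes passed in both directions. Of 18 core clock genes 5 rose and 4 fell (background 14.3% higher, 13.5% lower). Their median was 0.15, which was 0.32 without 12am a, 0.27 without 12pm c and 0.23 without 8pm c. Per3, a repressor of the clock, had 8.34, 8.89 and 9.55 in 8-o'clock arrays and 9.72, 9.92 and 10.08 in 12-o'clock arrays, with no overlap (-1.01 ± 0.12, adjusted p = 9.6e-05), and 3 of its 4 probe sets passed. Cry2 (1.03 ± 0.19), Npas2 (0.95 ± 0.18), Clock (0.58 ± 0.12), Per2 (0.58 ± 0.15) and Hlf (0.45 ± 0.12) were higher, and Csnk1e (-0.72 ± 0.13), Rora (-0.61 ± 0.11) and Tef (-0.62 ± 0.14) lower. The further probe sets of Per2 (-0.35 and -0.21), Hlf (0.18), Csnk1e (-0.01) and Tef (0.34) did not pass. Of the further sets of Clock, that at 0.4 passed, and those at -0.09 and -0.35 did not. Tef differed by -1.25 between the light times and by 0.00 between the dark times. Of the 6 probe sets of Rora 1 passed in the other direction.

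Other output and repressor genes of the clock had opposite signs in the light and the dark. Dbp, a clock output factor, had 7.63, 7.49 and 9.28 in 8am arrays and 12.15, 12.20 and 10.57 in 8pm arrays, against 10.61, 9.77 and 9.48 in 12pm and 9.94, 9.52 and 9.20 in 12am arrays. Its difference was -1.82 between the light times, 2.08 between the dark times and 0.13 ± 0.34 in the mean. Nr1d1 (-1.42 and 1.05) and Nr1d2 (-1.53 and 0.84), nuclear receptors that repress Arntl, had opposite signs in the same way. The difference between light and dark was -3.91 ± 0.69 for Dbp, -2.47 ± 0.45 for Nr1d1 and -2.37 ± 0.38 for Nr1d2, each with a limma adjusted p of 0.0997, past no threshold here. Arntl itself differed by -0.09 ± 0.16.

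Many genes carry several probe sets, which read different stretches of the transcript. Over 9551 further probe sets of 5595 genes, the difference correlated with that of the first set at r = 0.22 across sets, and 57.7% had the same sign. Of 2854 further sets that belong to genes past the threshold, 683 (23.9%) passed in the same direction, 248 (8.69%) in the opposite one and 1923 did not pass. The further sets have lower levels by construction. In 253 genes (4.52% of the 5595), 163 higher (2.91%) and 90 lower (1.61%), every probe set passed in 1 direction, a selection made after the values were seen.

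**Figure D5:**
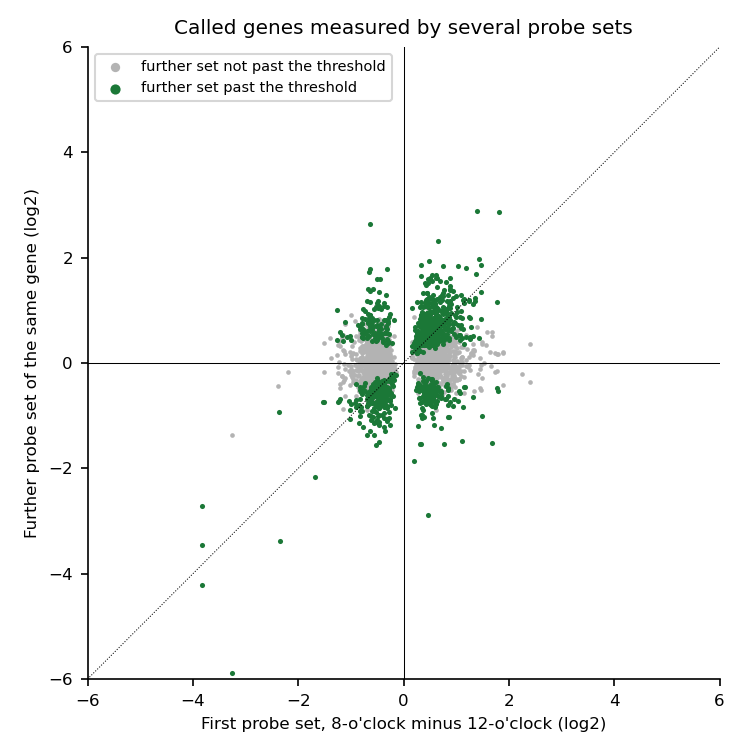
Each point is a further probe set of a gene that passed, with the first set's log2 difference on the x axis, its own on the y axis, and green marking further sets that passed (683 in the same direction, 248 in the opposite one). The dotted line marks equal differences, and 1923 of 2854 further sets did not pass.

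The genes on which every probe set passed, ranked by their smallest difference, began on the higher side with Cap1, a regulator of actin. Its first set had 9.76, 10.71 and 11.25 in 8-o'clock arrays and 8.03, 8.78 and 9.44 in 12-o'clock arrays (1.81 ± 0.26), and its further set differed by 2.87 ± 0.42. Atp2a3, a calcium pump of the endoplasmic reticulum (chr11:72961169-72993043), had 13.11, 13.24 and 13.30 in 8-o'clock arrays against 11.77, 11.94 and 12.20 in 12-o'clock arrays (1.25 ± 0.07, adjusted p = 4.05e-07) and 1.17 ± 0.19 on its further set. Neither gene overlapped between the sets. Nubp2, which assembles iron-sulfur clusters, rose by 1.40 ± 0.15 and 2.89 ± 0.21 on its first and further sets. Skp1, a subunit of ubiquitin ligases, rose by 0.99 ± 0.10, and Gclc, the catalytic subunit of the first enzyme of glutathione synthesis, by 0.94 ± 0.15. Nol8 (1.46), Mon1b (1.47), Rabgef1 (1.35), Alkbh8 (1.19), Narf (1.10) and Usp45 (1.02) were higher too, beside Gins2.

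On the lower side, Psap, the precursor of lysosomal saposins, had 12.31, 12.62 and 12.79 in 8-o'clock arrays and 13.34, 13.42 and 13.73 in 12-o'clock arrays (-0.90 ± 0.09, adjusted p = 3.59e-05), with no overlap. Cnot3, a subunit of the deadenylase complex, differed by -0.91 ± 0.19, Dtx2, a ubiquitin ligase of the Notch pathway, by -0.82 ± 0.18, and Hoxc6, a homeobox gene of body axis position, by -0.78 ± 0.15. Pnmal1 (-0.82), Sez6l (-0.82), Ulk4 (-0.85) and Rinl (-0.77) were lower by like amounts, beside Prss2, Klk1b5, Clps and Spata3.

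The third pair of times, 4pm and 4am, belongs to neither set. Only 2 of its 6 arrays, 4pm a and 4am c, had 3′ to 5′ ratios of Gapdh and Actb under 1.3. Their mean level lay nearer the 12-o'clock mean than the 8-o'clock mean in 2456 of the 3567 genes that passed (68.9%), and in 58.3% of all genes tested. For Pdia4, in a normalization over all 18 arrays, they had 5.62 and 7.47, with all 6 arrays of 4pm and 4am at 5.14 to 8.08, nearer to the 12-o'clock arrays than to the 8-o'clock arrays in each case.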

How the data were processed

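Total RNA of distal colon was measured on Affymetrix MOE430 2.0 arrays, with 3 arrays per time. The authors deposited a linear signal intensity per probe set, made with GCOS per the submitters' processing notes, whose version is not given in the sources used here. The table gives no detection calls, and precision is limited by how many arrays there are. Control probe sets (64 of 45101) were kept for array quality only. The 34945 probe sets with 1 gene symbol in the platform annotation were used for genes, with symbols updated through Entrez IDs to the RefSeq table of GRCm38.p6. Signals of the 12 arrays were quantile normalized and taken as log2(signal + 16). Probe sets below the 40th percentile of the mean level (7.15) were left out, and each of 12799 genes was read from its probe set of highest mean level.

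A limma 3.58.1 model (R 4.3.3) with a mean for each of 4 times, leaving 8 residual degrees of freedom, and an intensity trend gave the contrasts, tested two-sided. P-values were adjusted by Benjamini-Hochberg across the tested genes and called at 0.05. Array measures were compared by an exact permutation test. Named genes are up to 12 per direction with the largest difference among genes that passed, did not overlap and had the same sign in light and dark, up to 4 per list, and the core clock. Clone names were not named, and further list members given as examples were chosen after their values were seen. The members, the 46 gene lists (27 described) and the rules were chosen with earlier results of these data known, and genes with every probe set past the threshold were added after the values were seen. The script was tested on simulated data. Replicate letters did not pair the arrays: same-letter deviations correlated between -0.22 and 0.15, over 0.1 in 2 of 18 pairs. Alternatives changed the normalization, constant, filter, probe set rule, fit and arrays used.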

Additional observations from a re-analysis of the deposited data

Results flagged for a closer look

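Among 196 groups of 6 arrays looked at for a single array far from the rest, 13 were picked out by Dixon's test, which does so by chance in about 1 of 20 groups. In 8-o'clock arrays these were Slc18a2 at 7.72 in 8pm b (nearest other array 8.50), Cela2a at 6.26 in 8am a (5.20), Sez6l at 7.30 in 8am b (7.61) and Ulk4 at 6.52 in 8am c (7.36). In 12-o'clock arrays they were Slc18a2 at 4.82 in 12am b (6.61), Pdia2 at 13.27 in 12am b (8.73), Nol8 at 5.02 in 12am c (6.82), Rabgef1 at 10.54 in 12am a (9.38) and Dtx2 at 8.08 in 12pm b (8.86). Array 12am b also had the highest mean level of the enteric glia list (9.03, nearest 8.77) and of the endoplasmic reticulum chaperone list (11.28, nearest 10.84). The 3′ to 5′ ratio of Gapdh was 1.12 in 12am a (nearest 0.877), and that of the lys, phe and thr controls was 1.56 in 12am c (nearest 1.33).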

How the results depend on the processing

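With deposited values centred on array medians, 5650 genes passed (4733 higher, 917 lower) and 1 in the test of light against dark. In this setting 5 list medians of -0.12 or lower turned positive: fibroblast and collagen 0.02, smooth muscle 0.26, enteric neuron 0.06, macrophage 0.08 and B and plasma cell 0.01. All but smooth muscle lay below the 0.252 of all genes. Medians of -0.06 to -0.01 also turned positive: goblet cell 0.46, respiratory chain 0.47, tight junction 0.34, DNA replication 0.31 and endoplasmic reticulum chaperones 0.39. With the deposited scaling 4277 passed, 45.1% higher. Every probe set on its own gave 7216 (3734 higher, 3482 lower). All 18 arrays in the fit gave 1398 (654 higher, 744 lower). Of alternatives chosen after seeing the data, the light gave 981 (523 higher, 458 lower), the dark 2291 (1268 higher, 1023 lower), and the rule on every probe set 253. Leaving out 1 array gave 2756 to 3947 genes, and 0 to 7 for light against dark. With the replicate block 3318 genes passed, 3223 of them shared with the 3567, though the letters do not pair the arrays. The remaining counts lay between 2767 and 4346. For 45 named genes, 45 of 1125 values are missing, in 18 genes (18 of them at the 60th percentile filter). Of the other 1080, 1055 kept direction and threshold, 25 lost the threshold and 0 reversed. Pdia2 and Clps were lost most often, and Tff2, Cel, Alkbh8, Psap, Dtx2 and Cnot3 in the fit of all 18 arrays. The causes were not tested. Signals have no detection calls, so levels near the floor carry no order.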
